A study of Mus musculus with 41 samples.

Results

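Kidney of mice 3 days after renal ischaemia was compared with kidney of control animals by 3′ mRNA sequencing, gene by gene, in 12 of the 41 libraries of the series: 6 labelled UIRI d3 and 6 labelled Control. They were taken by their sample titles, and each title was joined to a column of the count table by the library number in its description. The animals were male mice 8 to 10 weeks old; no strain, transgene or other genetic change is named for these 12. In the UIRI d3 group the left kidney had its blood supply stopped for 21 minutes at a core temperature of 34 °C and was then reperfused (unilateral ischaemia-reperfusion injury, UIRI) and the animals were killed on day 3; no nephrectomy is named for this group. Control animals had no UIRI; the labels do not say whether they had a sham operation, and for both groups they name the tissue only as kidney, without the side. RNA came from a frozen section of a kidney pole, so that each library holds whatever cell types lay in that pole, and 500.0 ng entered the QuantSeq forward 3′ kit, which reads the 3′ end of each polyadenylated transcript. The design text gives 6 animals a group, and the titles number the libraries 1 to 6.

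The proximal tubule, which does most of the kidney's reabsorption, depends on mitochondrial oxidation and is the segment most easily hurt by a stop in blood flow. In the days after ischaemia, dying tubule cells are shed, surviving cells flatten, spread over the bare basement membrane and divide, and neutrophils and then monocytes enter the tissue. Injured tubule cells are known to make Havcr1, Lcn2 and Krt20 and to lose transporters; the account below turns to the genes beyond those markers.

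The 12 libraries held 9271486 to 30753380 counts (Control 12888852 to 30753380, UIRI d3 9271486 to 15611432), and values are given in CPM, a gene's counts relative to its library's size after scaling with the TMM method. Of 15701 genes tested with edgeR's quasi-likelihood test, 2793 (17.8%) were higher and 2339 (14.9%) lower in UIRI d3 at a Benjamini-Hochberg adjusted p under 0.05. More than 2-fold changes made up 1795 (11.4%) and 1161 (7.39%) of the genes tested. Without TMM scaling the split was 4370 higher and 1344 lower, since the median log2 fold change of all genes then lay at 0.26 in place of 0.00; the changes below are those with TMM scaling. The 50 most abundant genes of each library held 27.5% ± 1.08 of the counts in Control and 21.0% ± 1.45 in UIRI d3 (SD, n = 6 in each group; two-sided exact permutation p = 0.00216, the smallest this design can give, 0.00433 adjusted over both library measures). Without the transcripts of the mitochondrial genome the shares were 22.2% ± 1.20 and 18.5% ± 2.01 (n = 6; same exact test, p = 0.00866). At an equal depth of 9271486 counts, 18820.0 ± 851 genes were detected in Control and 19235 ± 737 in UIRI d3; the two-sided exact permutation test did not call this difference (p = 0.392). The first principal component separated the groups and held 49.8% of the variance. The second held 15.8%. UIRI d3 replicate 2 lay furthest from 0 on it (69.6). This library also had the lowest mean correlation with the rest of its group among the 12 (0.939). Control replicate 4 and UIRI d3 replicate 3 lay lowest on the second component (-48.4 and -46.8). The latter 2 libraries share a library block, as described below, in which each is the only library of its group. UIRI d3 replicate 3, the library with the fewest counts, stood apart for neutrophil and acute-phase genes. Control replicate 3 did so for brown fat genes (59.2 CPM of Ucp1). The main results that rest on either are given with and without it. Of the 12 markers that define the kidney's own segments, all were detected in every library: 7 fell, none rose, and Umod, Slc5a2, Cdh16, Pax8 and Nphs1 did not pass the test. Of 8 tested markers of liver, pancreas, adrenal, muscle and fat, Star and Acta1 rose and Alb and Ttr fell, of which Star did not pass without Control replicate 5, Control replicate 6 or UIRI d3 replicate 5 (adjusted p up to 0.0632). Of 6 red blood cell markers Slc4a1, which is also in the solute carrier list, fell and the others did not pass. Its fall is not taken as a change in red blood cells.

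Some of the genes that the results turn on are shown first by the DNA before their start, chosen because a motif named below is found there. Of 7 motifs searched on both strands, 2 are described; the others were CCAAT, the E2F motif TTTNNCGC, the HNF4 motif CAAAGTCCA and the HNF1 and NF-kB motifs. TGANTCA, the site of the AP-1 family of transcription factors, was sought on both strands in the RefSeq promoter windows of GRCm38.p6, which run from before a gene's start to shortly after it and are of equal length. It was present in 7.81% of the 32851 windows of the table and in 5.50% of the 14473 windows of genes tested here. Among windows of coagulation genes it was present in 9 of 26 (34.6%), among serpin windows in 4 of 19 (21.1%) and among windows of desmosome and cornified envelope genes in 3 of 9 (33.3%). These were the 3 highest shares among the lists and were chosen after the shares were seen. In the desmosome and cornified envelope list 6 of 15 tested genes rose. Several lists in which most genes rose gave lower shares. These were 4 of 50.0 windows (8.00%) for the IL-1, Toll-like receptor and TNF list that holds Il1rn and 2 of 47 (4.26%) for the acute response factors. The neutrophil markers gave 0 of 8 and DNA repair 0 of 41. The share was 4 of 23 (17.4%) for the endoplasmic reticulum list, in which 4 of 26 genes rose. The CArG box, the site of serum response factor, was present in 1.63% of all windows and in 5 of 46 (10.9%) windows of actin cytoskeleton genes, a share exceeded by 2 marker lists with 1 of 6 windows each. These are letter matches, not measured binding, and several windows can belong to the same gene. The part of the window before the start is printed for 6 genes, 5′ to 3′ on the gene's own strand, with the match in capitals: 4 genes that rose, a serpin that fell although it carries the same letters, and an actin-binding gene with the CArG box.
Il1rn (chr2:24336610-24336859, plus strand; AP-1 letters from 141 bases before the start): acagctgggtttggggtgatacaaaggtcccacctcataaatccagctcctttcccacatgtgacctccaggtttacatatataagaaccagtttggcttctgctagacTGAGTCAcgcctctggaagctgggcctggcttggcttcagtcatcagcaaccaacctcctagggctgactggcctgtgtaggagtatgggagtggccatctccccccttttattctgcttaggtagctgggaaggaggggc
Sprr2f (chr3:92364937-92365186, plus strand; AP-1 letters from 197 bases before the start): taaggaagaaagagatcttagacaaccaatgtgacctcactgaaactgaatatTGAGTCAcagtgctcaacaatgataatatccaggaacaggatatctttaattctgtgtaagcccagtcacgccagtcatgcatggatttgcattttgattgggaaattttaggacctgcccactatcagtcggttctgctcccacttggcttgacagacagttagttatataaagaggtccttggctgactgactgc
Plaur (chr7:24462233-24462482, plus strand; AP-1 letters from 69 bases before the start): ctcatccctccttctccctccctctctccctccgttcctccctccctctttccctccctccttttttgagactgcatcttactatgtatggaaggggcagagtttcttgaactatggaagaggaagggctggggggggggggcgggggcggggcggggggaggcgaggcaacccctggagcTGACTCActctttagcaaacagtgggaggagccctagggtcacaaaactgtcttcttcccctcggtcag
Anxa2 (chr9:69453433-69453682, plus strand; AP-1 letters from 95 bases before the start): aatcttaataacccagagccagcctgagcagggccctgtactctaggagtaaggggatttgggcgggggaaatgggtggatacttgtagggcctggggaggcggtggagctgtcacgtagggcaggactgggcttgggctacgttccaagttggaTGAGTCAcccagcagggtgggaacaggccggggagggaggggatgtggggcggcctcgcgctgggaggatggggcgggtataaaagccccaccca
Serpina1d (chr12:103773634-103773883, minus strand; AP-1 letters from 229 bases before the start): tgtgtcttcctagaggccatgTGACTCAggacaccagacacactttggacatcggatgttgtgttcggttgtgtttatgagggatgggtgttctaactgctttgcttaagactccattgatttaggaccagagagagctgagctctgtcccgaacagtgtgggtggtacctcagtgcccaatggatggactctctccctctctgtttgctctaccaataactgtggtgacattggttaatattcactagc
Cnn2 (chr10:79988350-79988599, plus strand; CArG box from 56 bases before the start): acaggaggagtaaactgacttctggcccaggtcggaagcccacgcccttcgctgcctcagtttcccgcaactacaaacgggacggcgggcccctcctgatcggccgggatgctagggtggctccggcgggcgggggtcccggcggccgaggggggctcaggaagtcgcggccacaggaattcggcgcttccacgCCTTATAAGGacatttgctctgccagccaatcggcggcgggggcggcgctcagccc

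Across the gene lists, inflammatory, cytoskeletal and coagulation genes moved up and metabolic and transport genes moved down in UIRI d3. The lists and their members were chosen with earlier results of these data known. Their shares therefore describe the lists and are not an independent test. The largest shares that rose were those of the neutrophil markers (9 of 9 tested), the IL-1, Toll-like receptor and TNF pathway (35 of 41), the myeloid receptors (32 of 38) and the actin cytoskeleton (33 of 44), against 17.8% of all genes tested. Of 14 neutrophil markers listed, only these 9 were tested. Those almost absent from Control passed the filter on low counts only through injured groups, so that their share was in part set by the filter. The largest shares that fell were those of the proximal tubule segment markers (15 of 16), amino acid catabolism (37 of 48) and the TCA cycle (24 of 33), against 14.9% of all genes tested. The 17.8% higher and 14.9% lower among all genes tested are the background of every list count below. A share near or under its background is not read as a result about that list. RNA of bulk tissue cannot tell fewer cells of a type from less RNA in each cell.

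**Figure D1:**
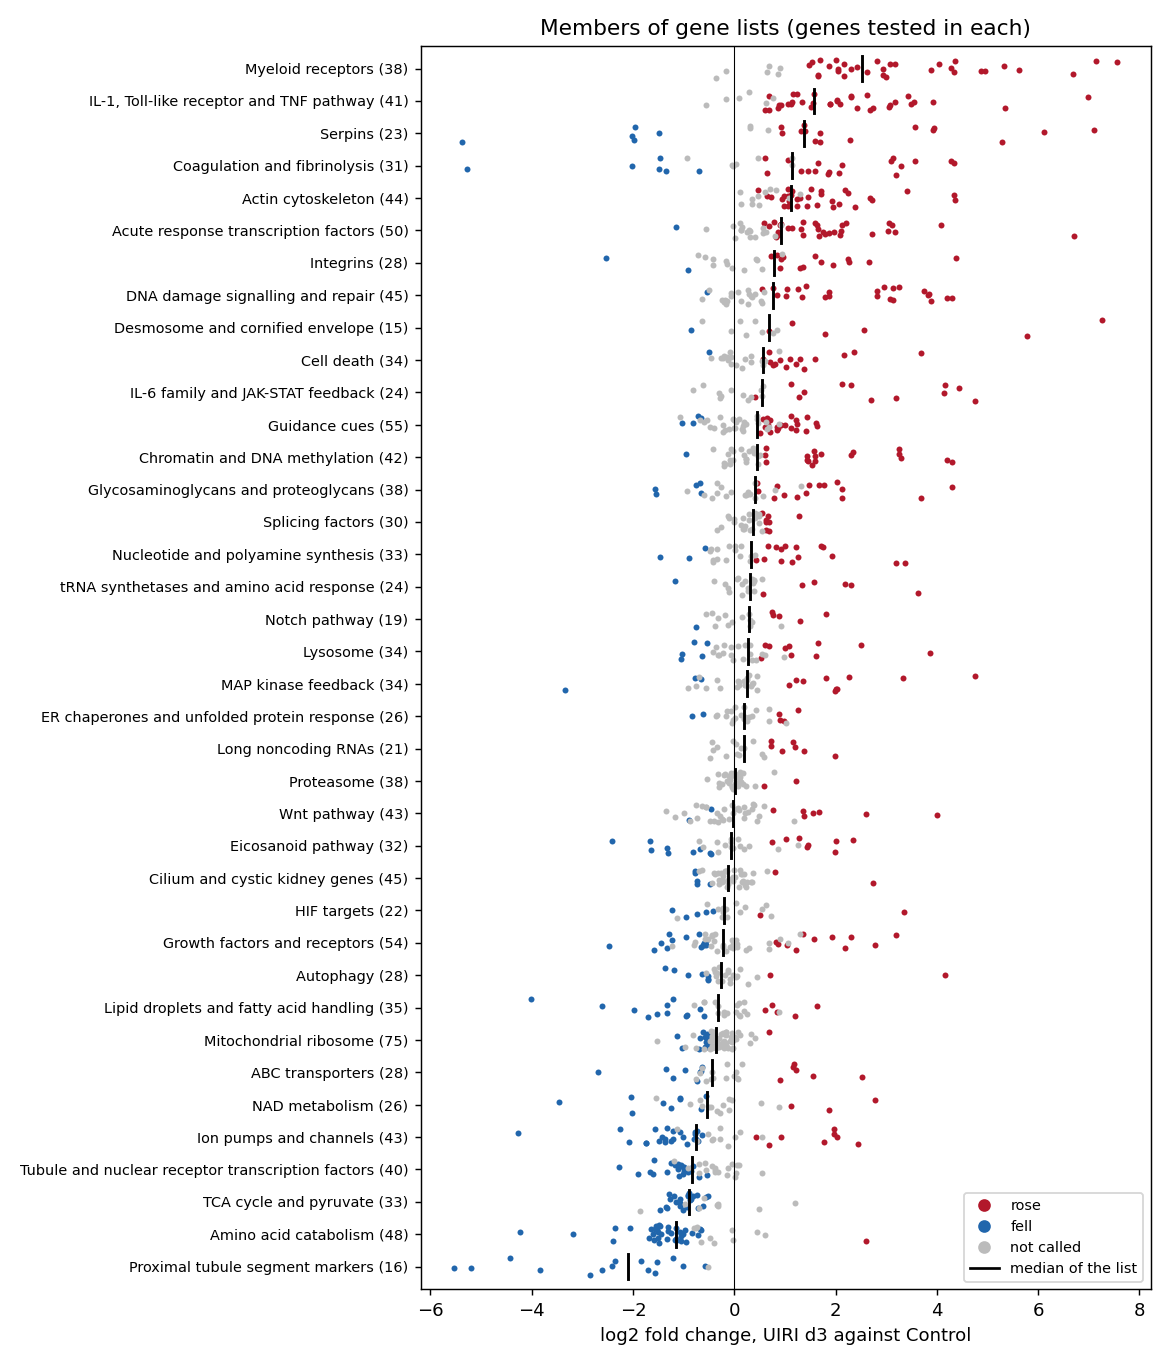
Log2 fold change of UIRI d3 against Control (x axis) for each tested member of each list with at least 15 tested members, without the solute carriers (y axis, with the number tested); points are genes, red rose, blue fell, grey did not pass the test, and the black bar is the list's median. The medians run from -2.10 for the proximal tubule segment markers to 2.53 for the myeloid receptors.

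Genes that damp IL-1 rose along with those that carry its signal. Il1rn, the secreted antagonist of the IL-1 receptor (chr2:24336853-24351494), was at 0.221, 0.395 and 1.05 CPM in Control and 49.5, 59.6 and 96.1 CPM in UIRI d3 (log2 fold change 6.99 ± 0.32, adjusted p = 5.2e-14). Here and below the 3 values of a group are the lowest, the median and the highest of its 6 libraries, ± after a log2 fold change is its standard error, and adjusted p is that of edgeR's quasi-likelihood test. Every injured library lay above every control library, as was the case for 10.3% of all genes tested (8.08% lay wholly below). For Il1rn and the other genes named for the largest fold changes, a lack of overlap was a condition of that choice. Many other genes are named because they had the smallest adjusted p of their list. That choice favours genes without overlap, so that their lack of overlap, here and below, is not a separate result. Il1r2, the decoy receptor that binds IL-1 without signalling, was at 0, 0.1 and 0.553 CPM in Control and 4.14, 5.9 and 21.5 CPM in UIRI d3 (5.34 ± 0.60, adjusted p = 8.4e-08). Its highest value belonged to UIRI d3 replicate 3. When single libraries were left out its log2 fold change ran from 4.81 to 6.35, the latter without Control replicate 3. Il1b itself, the main ligand, was at 1.93, 2.24 and 3.27 CPM in Control and 2.48, 7.03 and 32.5 CPM in UIRI d3. The groups overlapped, although it passed the test (2.03 ± 0.48, adjusted p = 0.0015). Its log2 fold change was 1.21 without UIRI d3 replicate 3, and it was chosen after its values were seen. The alarmin Il33 was at 8.2, 9.33 and 11.9 CPM in Control and 31.8, 36.7 and 57.4 CPM in UIRI d3, with no overlap (2.02 ± 0.18, adjusted p = 2.4e-09). Nfkbiz, a nuclear cofactor of NF-kB, was at 5.55, 7.93 and 9.53 CPM in Control and 21.6, 28.4 and 33.9 CPM in UIRI d3 (1.88 ± 0.16, adjusted p = 9.9e-10). Tnfrsf12a, the receptor for the cytokine TWEAK, was at 9.75, 12.7 and 17.2 CPM in Control and 82.1, 116 and 163 CPM in UIRI d3 (3.17 ± 0.30, adjusted p = 6.0e-09), and again every injured library was above every control library. Of the 41 tested members of this list, 35 rose and none fell, with a median of 1.58. The most abundant member that did not pass was Tnfrsf21 (-0.56 ± 0.42, adjusted p = 0.34).

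Leaving out well-known markers, genes whose groups overlap and the gene classes excluded by the naming rule, 2 chemokines were among the 12 largest rises of genes that reached a mean of 10.0 CPM. Cxcl5, a neutrophil attractant, was at 0, 0.0915 and 0.34 CPM in Control and 6.18, 16.2 and 78.7 CPM in UIRI d3 (7.67 ± 0.67, adjusted p = 1.7e-09). Ccl7, which attracts monocytes, was at 0.0483, 0.144 and 0.255 CPM in Control and 6.63, 12 and 21.1 CPM in UIRI d3 (6.39 ± 0.46, adjusted p = 4.8e-11). No control library reached 1 CPM of either gene. That neither overlapped between the groups was a condition of their choice, not a result.

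Of 24 genes of the IL-6 family and its feedback, 12 rose and none fell (median 0.55). Il11, a ligand of the family, was at 0.323, 0.574 and 0.772 CPM in Control and 5.66, 10.9 and 21.6 CPM in UIRI d3 (4.44 ± 0.41, adjusted p = 4.5e-09). Bcl3, an IkB-family protein placed in the list as a STAT3 target, was at 14.9, 19.2 and 22.7 CPM in Control and 73, 130.1 and 147 CPM in UIRI d3 (2.71 ± 0.24, adjusted p = 2.0e-09). Neither gene overlapped between the groups. The ligand Lif passed the test at low levels, 0 to 0.161 CPM in Control and 0.784 to 2.69 CPM in UIRI d3. Pim3, the most abundant member that did not pass, was at 309, 737 and 1784 CPM in Control and 216, 454 and 917 CPM in UIRI d3 (-0.82 ± 0.47, adjusted p = 0.19).

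Receptors of myeloid cells rose as a block: 32 of the 38 tested were higher and 0 were lower (median 2.53). Their summed level was 234 to 346 CPM in Control and 697 to 941 CPM in UIRI d3, without overlap. Msr1, a scavenger receptor of macrophages, was at 0.664, 0.92 and 1.1 CPM in Control and 18.2, 26.6 and 30.6 CPM in UIRI d3 (4.87 ± 0.28, adjusted p = 1.6e-12). C5ar1, the receptor for the complement fragment C5a, was at 0.0865, 0.421 and 0.765 CPM in Control and 9.27, 13.1 and 18.2 CPM in UIRI d3 (4.95 ± 0.36, adjusted p = 5.8e-11). Fcgr3, a low-affinity immunoglobulin receptor, was at 9.26, 11 and 16.5 CPM in Control and 63, 86.5 and 101 CPM in UIRI d3 (2.83 ± 0.25, adjusted p = 1.7e-09). In all 3 every injured library was above every control library. Sirpa, which tubule and myeloid cells can both make, spread over 31.4 to 211 CPM in UIRI d3 and did not pass (0.91 ± 0.43, adjusted p = 0.11). Arg1, the arginase of alternatively activated macrophages, was at 0, 0.0674 and 0.363 CPM in Control and 3.06, 8.7 and 22.7 CPM in UIRI d3 (5.98 ± 0.71, adjusted p = 2.5e-07). The dendritic cell list did not share the direction: of 8 tested members, Fscn1 rose and Itgae and Xcr1 fell, the latter with an adjusted p of up to 0.0940 when a library was left out (Control replicate 5). Of 14 listed markers of mast cells, eosinophils and platelets, 5 were tested, of which Pf4, Ppbp and Siglecf rose. Members almost absent from Control could pass the filter on low counts only through injured groups. Pf4, a platelet and macrophage chemokine, was at 0.173, 1.84 and 3.09 CPM in Control and 33.8, 37.8 and 72.2 CPM in UIRI d3 (4.68 ± 0.38, adjusted p = 3.6e-10). Itga2b, of the same list, was lower and did not pass (-0.71 ± 0.28, adjusted p = 0.052).

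Neutrophil genes rose by very unequal amounts from library to library. The summed level of the neutrophil markers was 4.15 to 14.8 CPM in Control and 59.7 to 2144 CPM in UIRI d3, with a median of 141 CPM. S100a8, a chain of calprotectin, was at 1.19, 2.43 and 7.35 CPM in Control and 22.1, 78.3 and 1388 CPM in UIRI d3, and its highest value belonged to UIRI d3 replicate 3. Its log2 fold change was 6.41 ± 0.91, adjusted p = 3.6e-06, and 4.43 without that library. S100a9, its partner, was at 1.3, 2.03 and 3.87 CPM in Control and 17.4, 34 and 523 CPM in UIRI d3 (5.70 ± 0.81, adjusted p = 3.8e-06), and its log2 fold change was 3.86 without replicate 3. Mmp8, the neutrophil collagenase, and Chil3, a chitinase-like protein of myeloid cells, had log2 fold changes of 5.73 and 6.55, and of 4.00 and 5.31 without that library. Slpi, an inhibitor of neutrophil elastase, was at 0.085, 0.199 and 0.346 CPM in Control and 6.41, 12.4 and 112 CPM in UIRI d3, with a log2 fold change of 7.09 with and 5.81 without that library. For Cxcl5 the values were 7.67 and 6.82. All 6 genes passed the test in every fit that left out a single library; the highest adjusted p was 0.00016, for Chil3. Mmp9, a gelatinase of neutrophils and other cells, was at 0.34, 0.806 and 1.53 CPM in Control and 9.86, 14.6 and 57.3 CPM in UIRI d3 (4.63 ± 0.42, adjusted p = 2.6e-09). Its log2 fold change was 4.06 without UIRI d3 replicate 3.

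**Figure D2:**
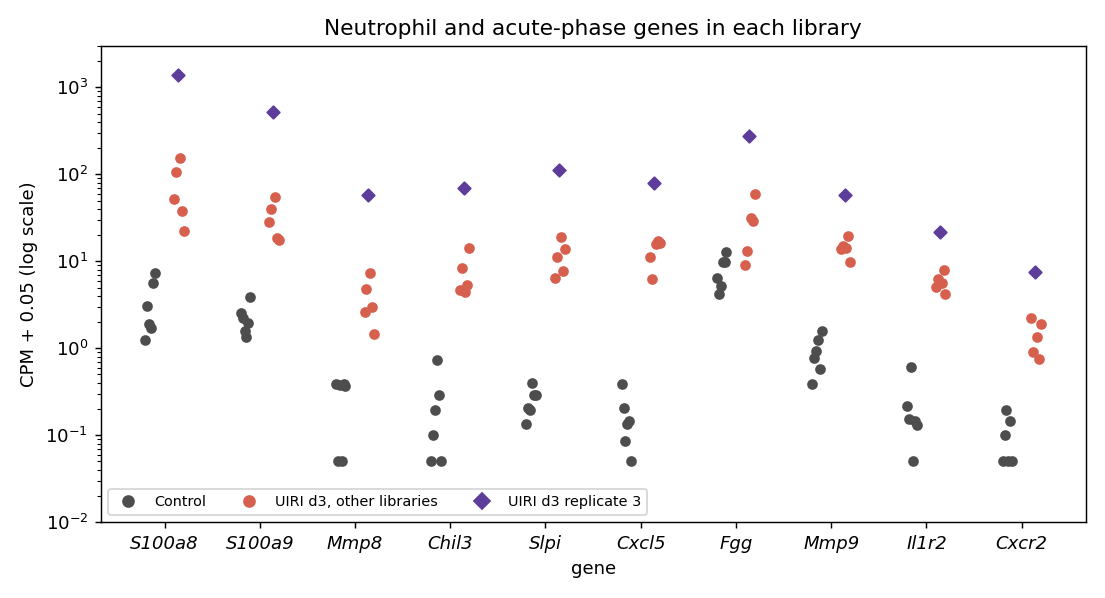
CPM plus 0.05 on a log scale (y axis) of neutrophil and acute-phase genes (x axis) in the 6 Control libraries (grey), 5 UIRI d3 libraries (red) and UIRI d3 replicate 3 (violet diamonds). The diamond is the highest point for S100a8 (1388 CPM), S100a9 (523 CPM) and Fgg (276 CPM).

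Small proline-rich proteins, which cross-link into the cornified envelope of skin, rose strongly. Sprr2f (chr3:92365187-92366442) was at 0, 0.261 and 0.484 CPM in Control and 23.5, 34.7 and 61.9 CPM in UIRI d3 (7.25 ± 0.45, adjusted p = 5.5e-12). Sprr1a was at 5.86, 17.4 and 49.4 CPM in Control and 106, 143 and 171 CPM in UIRI d3 (2.56 ± 0.39, adjusted p = 9.3e-06). Both lie in the same cluster on chromosome 3. Neither overlapped between the groups, which for Sprr2f was a condition of its choice among the largest rises. The cluster holds similar copies, so that counts of single members are uncertain. The desmosomal and cornified envelope list as a whole had 15 tested members, of which 6 rose and Pkp4, a plakophilin-related protein of cell junctions, fell (-0.86 ± 0.19, adjusted p = 0.001). Jup, which links desmosomes to keratin, was at 92, 114 and 340.4 CPM in Control and 56, 181 and 348 CPM in UIRI d3 and did not pass (0.24 ± 0.44, adjusted p = 0.73).

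Serpins, the family of serine protease inhibitors, moved in both directions. Of 63 listed, 23 were tested. Of these, 15 rose (65.2%, against 17.8% of all genes tested) and 5 fell (21.7%, against 14.9%), with a median of 1.38. Members almost absent from Control could pass the filter on low counts only through injured groups. The share that rose can therefore in part be set by the filter. Serpina10, the inhibitor of activated factor X that acts with protein Z (chr12:103614786-103631444), was at 3.87, 4.58 and 6.05 CPM in Control and 106, 183 and 301 CPM in UIRI d3 (5.29 ± 0.26, adjusted p = 1.6e-13). Serpina1d, a copy of the alpha-1-antitrypsin gene (chr12:103763594-103773592), was at 50.6, 84.5 and 137 CPM in Control and 0.285, 1.01 and 8.42 CPM in UIRI d3 (-5.37 ± 0.58, adjusted p = 4.9e-08), the opposite direction on the same chromosome. Without UIRI d3 replicate 3 its log2 fold change was -6.36. The neighbouring copies did not act alike: Serpina1b was at 5.11 ± 4.01 CPM in Control and 13.3 ± 8.75 CPM in UIRI d3 and rose (1.38 ± 0.48, adjusted p = 0.026). Serpina1a was at 12.2 ± 9.22 CPM in Control and 3.18 ± 3.86 CPM in UIRI d3 and fell (-1.98 ± 0.62, adjusted p = 0.014; mean ± SD, n = 6). Without UIRI d3 replicate 3 the log2 fold change of Serpina1a was -2.83, and Serpina1b did not pass (adjusted p = 0.0982). Reads of such near-identical copies can be counted for the wrong member, and these values are uncertain for that reason; Serpina1a and Serpina1b were chosen after their values were seen. Serpinf2, the inhibitor of plasmin, was at 137, 147 and 277 CPM in Control and 44.3, 63 and 77.6 CPM in UIRI d3 and fell (-1.48 ± 0.27, adjusted p = 8.6e-05), without overlap.

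Coagulation and fibrinolysis genes rose in 18 of 31 cases and fell in 6 (median 1.15). The 4 members with the smallest adjusted p follow. Plaur, the receptor of urokinase, was at 1.5, 1.67 and 2.58 CPM in Control and 11.8, 18.5 and 24.1 CPM in UIRI d3 (3.29 ± 0.25, adjusted p = 1.2e-10). Anxa2 and S100a10 encode the partners of a plasminogen-binding complex at the cell surface. Anxa2 was at 94.4, 180.0 and 281 CPM in Control and 874, 1662 and 2567 CPM in UIRI d3 (3.19 ± 0.32, adjusted p = 1.9e-08). S100a10 was at 60.9, 70.5 and 97.5 CPM in Control and 167, 219.9 and 312 CPM in UIRI d3 (1.66 ± 0.19, adjusted p = 1.3e-07). Procr, the receptor of protein C, was at 2.29, 4.84 and 6.38 CPM in Control and 13.4, 16.4 and 20.7 CPM in UIRI d3 (1.88 ± 0.22, adjusted p = 1.8e-07). None of these 4 genes overlapped between the groups. Fgg, a fibrinogen chain, spread widely over the injured libraries and overlapped with the controls: it was at 4.15, 8.02 and 12.9 CPM in Control and 8.98, 30.3 and 276 CPM in UIRI d3 (3.13 ± 0.65, adjusted p = 0.00043), and its log2 fold change was 1.84 without UIRI d3 replicate 3, which held the highest value. The 6 that fell were F2, F5, F13b, Proc, Serpinc1 and Serpinf2; F5 did not pass without Control replicate 3 (adjusted p = 0.0969) or without TMM scaling.

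**Figure D3:**
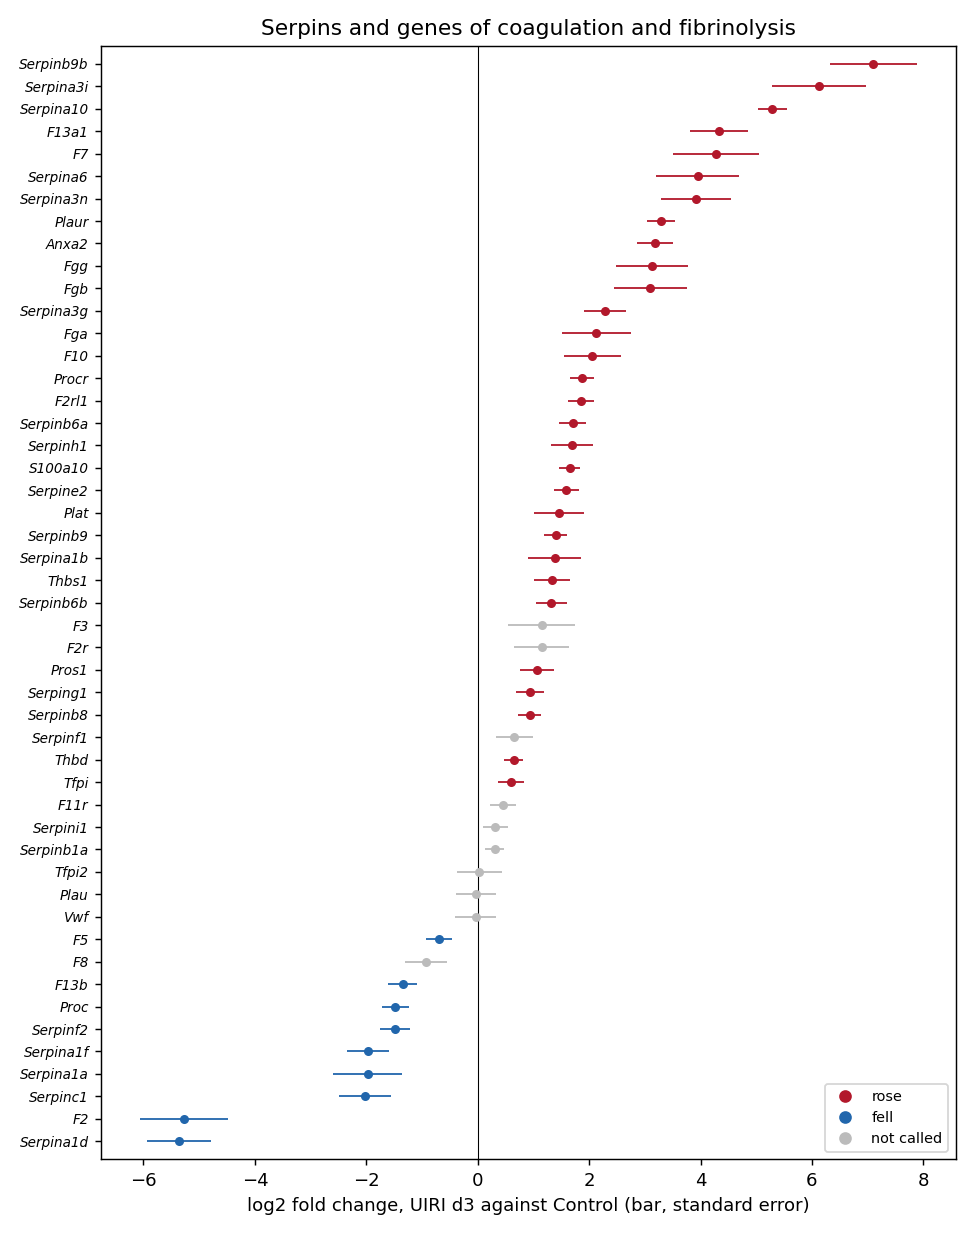
Log2 fold change of UIRI d3 against Control with its standard error (x axis) for tested serpins and genes of coagulation and fibrinolysis (y axis, sorted; 1 member is not shown); red rose, blue fell, grey did not pass the test. Serpina1d stands at -5.37 and Serpina10 at 5.29.

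Actin cytoskeleton genes rose as a group, 33 of 44 tested with none falling and a median of 1.13. Their summed level was 6923 to 9453 CPM in Control and 16156 to 19271 CPM in UIRI d3. Actb, beta-actin, often used as a reference gene, was at 2563, 2773 and 4071 CPM in Control and 5738, 6462 and 9746 CPM in UIRI d3 (1.24 ± 0.23, adjusted p = 0.00013), so that the lowest injured library lay above the highest control library. Tpm4, a non-muscle tropomyosin, was at 45.8, 58.5 and 73.5 CPM in Control and 246, 267 and 301 CPM in UIRI d3 (2.19 ± 0.14, adjusted p = 8.0e-12). Actn1, the alpha-actinin of stress fibres and focal contacts, was at 67, 75.3 and 96.8 CPM in Control and 331, 418 and 529 CPM in UIRI d3 (2.39 ± 0.18, adjusted p = 1.2e-10). Cnn2, the calponin with the CArG box shown above, was at 20.7, 24 and 33.1 CPM in Control and 44.3, 55.5 and 91.6 CPM in UIRI d3 (1.24 ± 0.21, adjusted p = 4.2e-05); it was chosen after its values were seen. Tagln2, a small actin-binding protein, was at 221, 420.0 and 734 CPM in Control and 944, 1661 and 2274 CPM in UIRI d3 (1.87 ± 0.27, adjusted p = 4.8e-06). Iqgap3, a scaffold of dividing cells, was at 0.406, 1.16 and 3.03 CPM in Control and 19.6, 27 and 31.1 CPM in UIRI d3 (4.33 ± 0.34, adjusted p = 2.2e-10). None of these 6 genes overlapped. Tmsb4x, the main actin-sequestering peptide, spread over 184 to 1599 CPM in UIRI d3 and did not pass (1.08 ± 0.51, adjusted p = 0.11).

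S100a6, a calcium-binding protein of growing cells, had, after Actb, the largest gain in mean CPM of the genes named here: it was at 77.3, 197 and 297 CPM in Control and 2867, 4395 and 4687 CPM in UIRI d3 (4.35 ± 0.32, adjusted p = 9.0e-11). Spp1, osteopontin, was at 227, 307 and 440.4 CPM in Control and 1592, 2664 and 4742 CPM in UIRI d3 (3.25 ± 0.29, adjusted p = 2.0e-09). Mgp, a matrix protein that inhibits calcification, was at 353, 433 and 780.0 CPM in Control and 2083, 2856 and 3312 CPM in UIRI d3 (2.39 ± 0.23, adjusted p = 6.5e-09). Sparc, a collagen-binding matrix protein, was at 391, 529 and 900.0 CPM in Control and 1557, 2071 and 3354 CPM in UIRI d3 (1.90 ± 0.32, adjusted p = 4.2e-05). Timp1, the inhibitor of metalloproteinases, was at 0.553, 1.18 and 1.9 CPM in Control and 35.9, 54.8 and 123 CPM in UIRI d3 (5.82 ± 0.41, adjusted p = 3.8e-11). All 5 separated the groups completely, which for Timp1 was a condition of its choice among the largest rises.

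Integrins, which hold cells to the matrix, rose in 14 of 28 cases and fell in 2 (median 0.78). Itga3, a laminin-binding chain of epithelia, was at 13.9, 19.3 and 24.6 CPM in Control and 45.7, 60.2 and 83.1 CPM in UIRI d3 (1.70 ± 0.21, adjusted p = 5.0e-07). Itga9, which binds osteopontin and tenascin, was at 11, 13.4 and 15.2 CPM in Control and 29.3, 36 and 37.1 CPM in UIRI d3 (1.37 ± 0.14, adjusted p = 1.2e-08), both without overlap. Itgb2, the shared chain of leukocyte integrins, was at 1.33, 1.62 and 2.18 CPM in Control and 3.69, 8.02 and 12.6 CPM in UIRI d3 (2.27 ± 0.29, adjusted p = 7.1e-07). Itgb8, a chain that activates TGF-beta, was at 33.6, 71.1 and 90.8 CPM in Control and 22.6, 32.4 and 53.8 CPM in UIRI d3 and fell (-0.91 ± 0.33, adjusted p = 0.035); its call was lost when single libraries were left out, with an adjusted p of up to 0.0782 (without Control replicate 1). The summed level of the myeloid receptors, given above, rose in the same libraries, and its part in the integrin counts was not tested.

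Transcription factors were sorted into lists with earlier results of these data known, so that their split by class is descriptive. Of 50 factors of the acute response, 32 rose and Etv1 fell (median 0.93), whereas of 40 tubule and nuclear receptor factors none rose and 21 fell (median -0.83). Maff, a small Maf protein, was at 1.98, 2.34 and 2.55 CPM in Control and 19.5, 21.1 and 21.7 CPM in UIRI d3 (3.18 ± 0.21, adjusted p = 1.1e-11). Sox4 was at 72.7, 88.5 and 103 CPM in Control and 318, 331 and 404 CPM in UIRI d3 (1.97 ± 0.15, adjusted p = 1.6e-10). Sox11 was at 1.29, 1.54 and 3.23 CPM in Control and 11.5, 32.9 and 46 CPM in UIRI d3 (4.09 ± 0.33, adjusted p = 3.5e-10); both are factors of embryonic epithelia and neurons. Runx1, best known from blood formation, was at 1.29, 4 and 5.1 CPM in Control and 21.2, 32.2 and 35.6 CPM in UIRI d3 (3.06 ± 0.25, adjusted p = 5.4e-10). In these 4 genes no library of one group reached the other. Etv1, an ETS factor, was at 18.3, 22.1 and 30.1 CPM in Control and 5.39, 10.0 and 16 CPM in UIRI d3 (-1.15 ± 0.22, adjusted p = 0.00022). Atf4, the factor of the integrated stress response, was at 209, 294 and 529 CPM in Control and 212, 413 and 522 CPM in UIRI d3 and did not pass (0.26 ± 0.31, adjusted p = 0.57).

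Among the factors that fell, Ppargc1a, the coactivator of mitochondrial biogenesis, was at 129, 155 and 192 CPM in Control and 62.7, 65.4 and 73.3 CPM in UIRI d3 (-1.24 ± 0.15, adjusted p = 4.5e-07). Thrb, a thyroid hormone receptor, was at 28.6, 47.4 and 69.4 CPM in Control and 11, 15.2 and 20.1 CPM in UIRI d3 (-1.59 ± 0.25, adjusted p = 1.5e-05). Irx1, an Iroquois homeobox factor of the nephron, was at 46.4, 65.6 and 99.2 CPM in Control and 12.9, 23.8 and 30.7 CPM in UIRI d3 (-1.60 ± 0.26, adjusted p = 1.9e-05). Esrrb, an orphan receptor of distal segments, was at 10.1, 14.6 and 33.7 CPM in Control and 0.944, 3.73 and 6.85 CPM in UIRI d3 (-2.27 ± 0.39, adjusted p = 4.5e-05). All 4 were lower in every injured library than in any control library. Maf, the most abundant of the list that did not pass, was at 762, 926 and 1049.5 CPM in Control and 438, 619 and 766 CPM in UIRI d3 (-0.55 ± 0.22, adjusted p = 0.054).

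**Figure D4:**
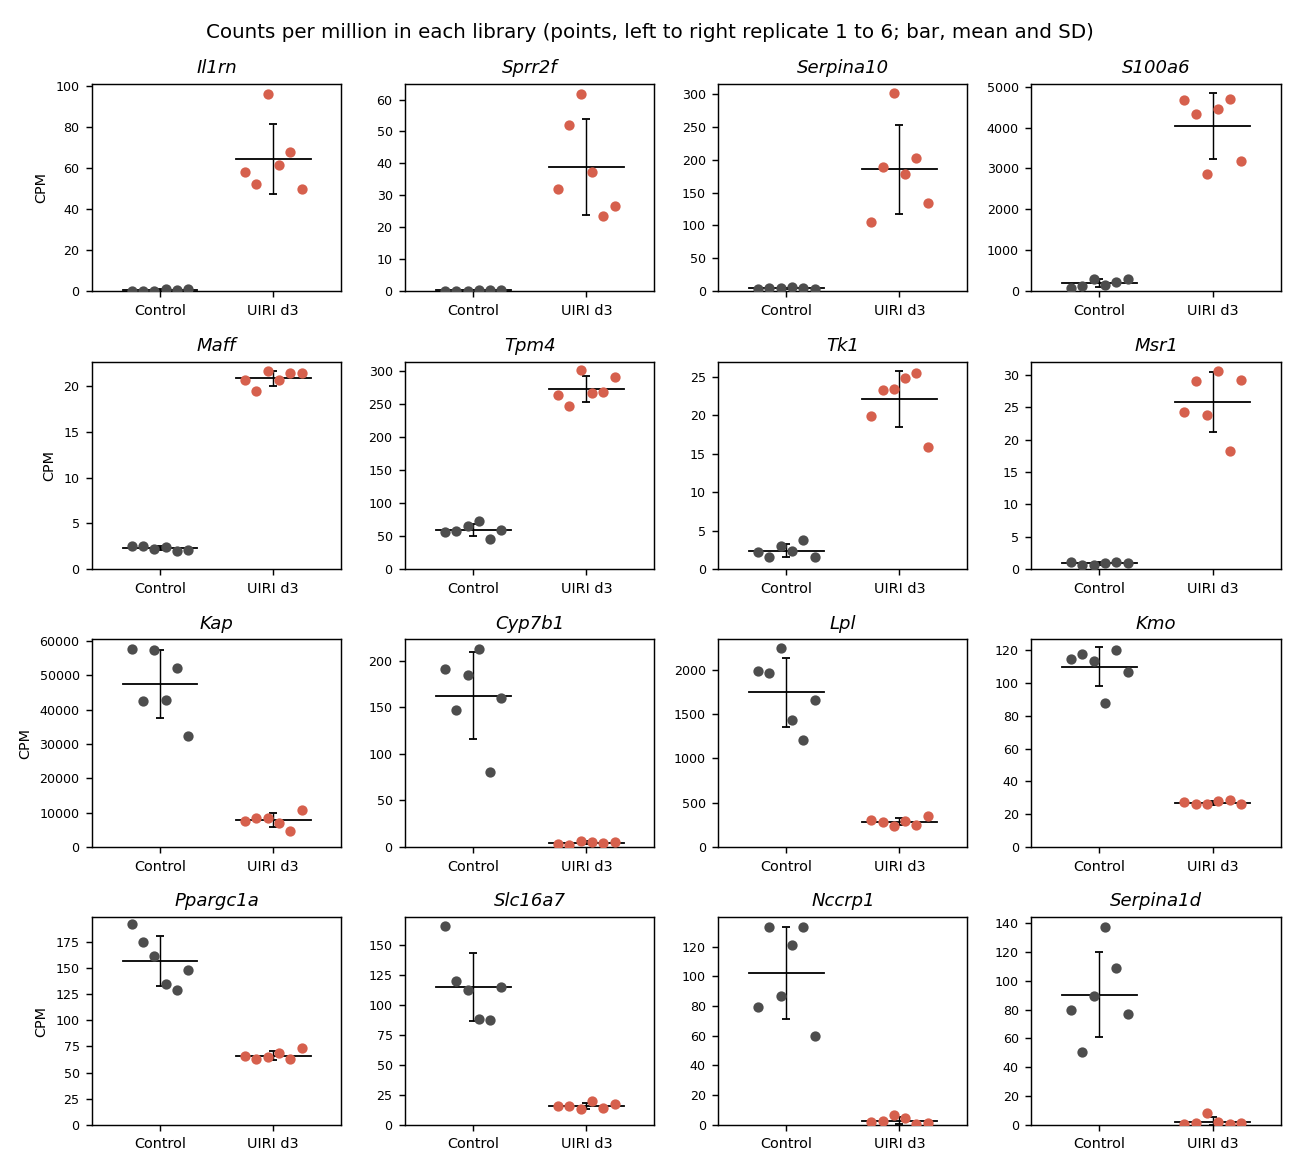
CPM (y axes, from 0) of 16 named genes in each of the 6 Control (grey) and 6 UIRI d3 (red) libraries; points are libraries, the horizontal line and bar are the mean and SD. The rows show 8 genes that rose, from Il1rn to Msr1, and then 8 that fell, from Kap to Serpina1d, none with an overlap between the groups.

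DNA synthesis and repair genes rose. Of 45 genes of DNA damage signalling and repair, 24 rose and Xpc, which recognises bulky lesions, fell (-0.54 ± 0.18, adjusted p = 0.02; 0.0585 without Control replicate 1); the median was 0.76. Those with the smallest adjusted p also work in replicating cells. Brca1 was at 0.0807, 0.551 and 0.778 CPM in Control and 4.83, 6.81 and 11 CPM in UIRI d3 (3.82 ± 0.36, adjusted p = 4.8e-09). Exo1, an exonuclease, was at 0.0865, 0.311 and 0.571 CPM in Control and 3.93, 6.58 and 8.98 CPM in UIRI d3 (4.20 ± 0.40, adjusted p = 5.8e-09). Lig1, the ligase of the lagging strand, was at 19.2, 41.9 and 65.9 CPM in Control and 174, 335 and 411 CPM in UIRI d3 (2.96 ± 0.30, adjusted p = 1.5e-08). None overlapped. Atm, the sensor kinase of double-strand breaks, was at 38.3, 50.4 and 84.1 CPM in Control and 28.1, 54.2 and 88.1 CPM in UIRI d3 and did not pass (-0.07 ± 0.31, adjusted p = 0.9).

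Chromatin genes followed with 18 of 42 higher and Tet2, which oxidises methylcytosine, lower (-0.96 ± 0.20, adjusted p = 0.00054). Uhrf1, which brings the maintenance methyltransferase to new DNA, was at 0.221, 0.917 and 1.94 CPM in Control and 7.98, 19.6 and 28.6 CPM in UIRI d3 (4.20 ± 0.45, adjusted p = 4.4e-08). Asf1b, a histone chaperone, was at 0.664, 1.06 and 1.78 CPM in Control and 8.41, 10.6 and 13.5 CPM in UIRI d3 (3.29 ± 0.31, adjusted p = 6.4e-09). Chaf1a, of chromatin assembly factor 1, was at 4.2, 4.99 and 7.44 CPM in Control and 18.9, 26.3 and 37 CPM in UIRI d3 (2.32 ± 0.25, adjusted p = 6.2e-08). Hmga2, an architectural protein of embryonic cells, was at 0.145, 0.398 and 0.701 CPM in Control and 4.49, 9.12 and 12.1 CPM in UIRI d3 (4.29 ± 0.50, adjusted p = 1.6e-07). These 4 also separated the groups.

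Nucleotide and polyamine synthesis had 15 of 33 genes higher (45.5%, against 17.8% of all genes tested), with a median of 0.34. Another 3 were lower (9.09%, under the 14.9% of all genes tested). Tk1, thymidine kinase, was at 1.53, 2.27 and 3.77 CPM in Control and 15.9, 23.4 and 25.5 CPM in UIRI d3 (3.19 ± 0.23, adjusted p = 4.7e-11). Rrm2, the small subunit of ribonucleotide reductase, was at 2.41, 5.26 and 7.59 CPM in Control and 31.1, 53.2 and 69.2 CPM in UIRI d3 (3.38 ± 0.33, adjusted p = 8.4e-09). Rrm1, its large subunit, was at 7.08, 8.69 and 13 CPM in Control and 28.8, 31.1 and 38.4 CPM in UIRI d3 (1.75 ± 0.19, adjusted p = 4.2e-08). Ctps, which makes CTP, was at 20.1, 22.5 and 31.1 CPM in Control and 57.5, 76.2 and 102 CPM in UIRI d3 (1.72 ± 0.17, adjusted p = 1.5e-08). In the opposite direction, Odc1, the first enzyme of polyamine synthesis, was at 46.8, 70.5 and 101 CPM in Control and 20.0, 23.8 and 40.0 CPM in UIRI d3 (-1.46 ± 0.23, adjusted p = 1.4e-05). All 5 genes separated the groups. Aunip, a partner of Aurora A kinase that works in DNA end resection, was the last of the 12 largest rises within the same limits, at 0.173, 0.349 and 0.821 CPM in Control and 9.16, 18.3 and 23.2 CPM in UIRI d3 (5.43 ± 0.44, adjusted p = 3.5e-10).

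Cell death genes rose in 15 of 34 cases, and Gsdme, a pore-forming gasdermin, fell (-0.51 ± 0.18, adjusted p = 0.029), a call lost when single libraries were left out, with an adjusted p of up to 0.0697 (without UIRI d3 replicate 3). Ripk3, the kinase of necroptosis, was at 0.085, 0.226 and 0.778 CPM in Control and 3.35, 4.27 and 6.07 CPM in UIRI d3 (3.68 ± 0.39, adjusted p = 3.3e-08). Mlkl, its pore-forming substrate, was at 0.519, 0.981 and 2.34 CPM in Control and 3.35, 5.56 and 7.43 CPM in UIRI d3 (2.36 ± 0.34, adjusted p = 4.3e-06). Bbc3 (Puma), a p53-induced activator of apoptosis, was at 2.72, 4.12 and 7.53 CPM in Control and 11.2, 20.5 and 37.6 CPM in UIRI d3 (2.17 ± 0.33, adjusted p = 1.0e-05). None of the 3 overlapped. Bad, the most abundant member that did not pass, was at 81.1, 164 and 306 CPM in Control and 107, 204 and 284 CPM in UIRI d3 (0.22 ± 0.29, adjusted p = 0.62).

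Autophagy genes leaned the other way, with 7 of 28 lower and 2 higher; without TMM scaling 3 were lower and 2 higher. Gabarapl1, an autophagosome protein, was at 1099, 1541 and 1688 CPM in Control and 531, 639.9 and 683 CPM in UIRI d3 (-1.20 ± 0.18, adjusted p = 8.1e-06). Pink1, the kinase that marks damaged mitochondria, was at 156, 215 and 264 CPM in Control and 69.1, 78.6 and 117 CPM in UIRI d3 (-1.36 ± 0.22, adjusted p = 1.7e-05), both without overlap. Sqstm1, an autophagy receptor, was at 234, 342 and 433 CPM in Control and 311, 372 and 401 CPM in UIRI d3 and did not pass (0.12 ± 0.16, adjusted p = 0.64). Lysosome genes had 10 of 34 higher (29.4%, against 17.8% of all genes tested) and 5 lower (14.7%, near the 14.9% of all genes tested). Ctss, a cathepsin of antigen-presenting cells, was at 30.0, 35 and 49.6 CPM in Control and 78.5, 121 and 145 CPM in UIRI d3 (1.61 ± 0.24, adjusted p = 6.0e-06). Ctsd, the aspartic cathepsin, was at 507, 972 and 1686 CPM in Control and 1248, 2139.6 and 2764 CPM in UIRI d3 (1.08 ± 0.30, adjusted p = 0.0059). Ctsh, an aminopeptidase-type cathepsin, fell (-0.64 ± 0.14, adjusted p = 0.00094). Stress of the endoplasmic reticulum gave 4 of 26 higher and 2 lower, shares under the 17.8% and 14.9% of all genes tested. Hspa5, the chaperone BiP, was at 855, 1063 and 1186 CPM in Control and 1052, 1990.2 and 2745 CPM in UIRI d3 (0.91 ± 0.24, adjusted p = 0.0041), with an overlap of the groups. Dnajc3, its cochaperone, was at 196, 241 and 329 CPM in Control and 145, 161 and 193 CPM in UIRI d3 and fell (-0.62 ± 0.15, adjusted p = 0.0026), a call lost without TMM scaling. Of 24 tRNA synthetases and genes of the amino acid response, Asns, Psat1, Phgdh, Mthfd2, Slc7a11 and Slc7a5 rose and Shmt2 fell. Phgdh, the first enzyme of serine synthesis, was at 0.369, 0.899 and 2.02 CPM in Control and 1.12, 4.13 and 8.17 CPM in UIRI d3 (2.19 ± 0.56, adjusted p = 0.0031). Slc7a11, the cystine importer, was at 0.0738, 0.363 and 0.623 CPM in Control and 1.03, 2.53 and 12.7 CPM in UIRI d3 (3.62 ± 0.56, adjusted p = 1.1e-05, and 2.91 without UIRI d3 replicate 3). Proteasome genes were mostly not called (2 of 38 higher, none lower, 1 of which was the immunoproteasome subunit Psmb10, 1.21 ± 0.29, adjusted p = 0.0016); these shares are at or under that of all genes tested.

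Amino acid breakdown, a mitochondrial and cytosolic task of the proximal tubule, fell in most of the genes tested: 37 of 48 fell and Arg2 rose, with a median of -1.15. Their summed level was 7685 to 10716 CPM in Control and 3587 to 4390 CPM in UIRI d3. Gcdh, of lysine and tryptophan breakdown, was at 172, 208 and 237 CPM in Control and 56.2, 76.9 and 91.1 CPM in UIRI d3 (-1.51 ± 0.14, adjusted p = 6.4e-09). Aass, the entry enzyme for lysine, was at 173, 245 and 351 CPM in Control and 50.7, 58.6 and 76.7 CPM in UIRI d3 (-2.06 ± 0.20, adjusted p = 1.0e-08). Ivd, of leucine breakdown, was at 173, 189 and 255 CPM in Control and 57.6, 71.8 and 87.7 CPM in UIRI d3 (-1.50 ± 0.14, adjusted p = 7.1e-09). Uroc1, of histidine breakdown, was at 41.2, 47.1 and 58.3 CPM in Control and 2.78, 4.89 and 10.1 CPM in UIRI d3 (-3.18 ± 0.31, adjusted p = 1.0e-08). No library of either group reached the other. Arg2, the mitochondrial arginase, was at 1.69, 2.8 and 5.62 CPM in Control and 4.98, 19.4 and 44.7 CPM in UIRI d3 (2.60 ± 0.47, adjusted p = 9.4e-05), with an overlap. Dao, D-amino acid oxidase, was at 603, 865 and 2628 CPM in Control and 388, 665 and 861 CPM in UIRI d3 and did not pass (-0.80 ± 0.34, adjusted p = 0.072).

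The TCA cycle and pyruvate entry showed 24 of 33 lower and none higher (median -0.89). Suclg1, of succinyl-CoA ligase, was at 526, 585 and 592 CPM in Control and 278, 303 and 336 CPM in UIRI d3 (-0.92 ± 0.13, adjusted p = 2.6e-06). Sdhb, the iron-sulfur subunit of succinate dehydrogenase, was at 579.6, 777 and 838 CPM in Control and 335, 353 and 461 CPM in UIRI d3 (-1.02 ± 0.16, adjusted p = 2.1e-05). Mpc1, a subunit of the mitochondrial pyruvate carrier, was at 38.9, 53.9 and 74.2 CPM in Control and 13.5, 18.7 and 28.9 CPM in UIRI d3 (-1.46 ± 0.21, adjusted p = 4.0e-06). Mdh1, the cytosolic malate dehydrogenase, was at 1156, 1680.2 and 2069 CPM in Control and 495, 649.7 and 929 CPM in UIRI d3 (-1.28 ± 0.20, adjusted p = 1.4e-05). These were the 4 members with the smallest adjusted p, and all 4 separated the groups. Of the 33 tested, 18 did not overlap, against 18.4% of all genes tested in either direction. Mdh2, the mitochondrial form, spread over 587 to 2339 CPM in Control and did not pass (-0.32 ± 0.28, adjusted p = 0.42). Mitochondrial ribosome genes were called lower in 19 of 75 cases (median -0.35), in 11 without UIRI d3 replicate 3 and in 1 without TMM scaling.

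Of 26 genes of NAD metabolism, 9 fell and 3 rose (median -0.53); the 3 were Nnmt, Cd38 and Bst1, and the 9 included Kmo, Haao, Ido2 and Acmsd of the route from tryptophan. Kmo, kynurenine monooxygenase, was at 87.7, 114 and 120.0 CPM in Control and 25.9, 26.9 and 28.6 CPM in UIRI d3 (-2.02 ± 0.14, adjusted p = 3.8e-11). Haao, which forms the quinolinate precursor, was at 53.6, 76.2 and 121 CPM in Control and 15.6, 20.2 and 22.7 CPM in UIRI d3 (-2.04 ± 0.24, adjusted p = 2.9e-07). Ido2, of the first step, was at 8.2, 10.6 and 11.5 CPM in Control and 0.428, 0.755 and 1.91 CPM in UIRI d3 (-3.45 ± 0.48, adjusted p = 2.8e-06). Nnmt, which methylates nicotinamide, was at 0.765, 1.23 and 2.4 CPM in Control and 8.05, 9.53 and 14.3 CPM in UIRI d3 (2.78 ± 0.25, adjusted p = 2.1e-09). Bst1, an NAD glycohydrolase of leukocytes and stroma, was at 4.88, 5.85 and 11.7 CPM in Control and 18.1, 26.1 and 45.5 CPM in UIRI d3 (1.87 ± 0.30, adjusted p = 1.6e-05). All 5 were without overlap. Nampt, of the salvage route, was at 126, 176 and 289 CPM in Control and 48.2, 129 and 293 CPM in UIRI d3 and did not pass (-0.49 ± 0.38, adjusted p = 0.35).

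Lipid handling had 12 of 35 lower and 5 higher (median -0.31). Lpl, lipoprotein lipase, was at 1202, 1809.5 and 2242 CPM in Control and 236, 289 and 346 CPM in UIRI d3 (-2.62 ± 0.18, adjusted p = 3.8e-11). Dgat2, of triglyceride synthesis, was at 132, 146 and 192 CPM in Control and 61.3, 63.9 and 70.5 CPM in UIRI d3 (-1.21 ± 0.15, adjusted p = 3.3e-07). Acsm2, a medium-chain acyl-CoA ligase, was at 4089, 4632 and 6425 CPM in Control and 1217, 1781 and 2209.7 CPM in UIRI d3 (-1.52 ± 0.22, adjusted p = 4.1e-06). Acsm3, of the same family, was at 91.6, 217 and 578 CPM in Control and 8.28, 17.3 and 34.2 CPM in UIRI d3 (-4.01 ± 0.58, adjusted p = 4.1e-06). Hilpda, a lipid droplet protein that inhibits lipolysis, was at 3.99, 9.98 and 14.5 CPM in Control and 19.5, 28.4 and 44.3 CPM in UIRI d3 and rose (1.64 ± 0.27, adjusted p = 2.1e-05). All 5 separated the groups.

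The listed targets of the hypoxia-inducible factors did not move together 3 days after the ischaemia. Of 22 tested, Hk2 and Ndrg1 rose (9.09%, against 17.8% of all genes tested) and 5 fell (22.7%, against 14.9%). Without TMM scaling 4 rose and 2 fell. The median was -0.21 under TMM scaling and 0.06 without it. Hilpda and Slc16a3, which both rose and are given with other lists, were not in this list. The counts therefore hold for the listed members only. Hk2, hexokinase 2, was at 1.56, 1.85 and 8.7 CPM in Control and 23, 26 and 47.5 CPM in UIRI d3 (3.35 ± 0.35, adjusted p = 3.4e-08); its log2 fold change was 4.06 without Control replicate 3, the highest control. Vegfa, the endothelial growth factor, was at 66.5, 97.2 and 127 CPM in Control and 25.7, 42.3 and 61.3 CPM in UIRI d3 (-1.22 ± 0.24, adjusted p = 0.0002). Bnip3, a mitophagy receptor, was at 93.1, 112 and 161 CPM in Control and 42.8, 60.5 and 83.3 CPM in UIRI d3 (-0.95 ± 0.25, adjusted p = 0.0036), both lower without overlap. Aldoa, a glycolytic aldolase, was at 462, 558 and 852 CPM in Control and 432, 487 and 602 CPM in UIRI d3 and did not pass (-0.23 ± 0.18, adjusted p = 0.37).

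The proximal tubule's segment markers fell in 15 of 16 cases (median -2.10); Slc5a2, the glucose transporter of the early segment, was the exception (-0.51 ± 0.25, adjusted p = 0.12). Kap, the androgen-regulated kidney protein (chr6:133849851-133853762), fell from a level that made up several percent of all counts: 32319, 47428 and 57765 CPM in Control and 4549, 8022 and 10789 CPM in UIRI d3 (-2.61 ± 0.41, adjusted p = 1.4e-05). Cyp7b1, an oxysterol and steroid hydroxylase of the late proximal tubule, was at 80.4, 172 and 212 CPM in Control and 2.57, 4.74 and 6.63 CPM in UIRI d3 (-5.19 ± 0.30, adjusted p = 1.6e-12). Slc7a13, a transporter of acidic amino acids and cystine in the late segment, was at 337, 604 and 1625 CPM in Control and 16.7, 35.8 and 79.5 CPM in UIRI d3 (-4.43 ± 0.76, adjusted p = 4.9e-05). Slco1a1, an organic anion transporter, was at 68.6, 148 and 419 CPM in Control and 7.57, 11.9 and 20.7 CPM in UIRI d3 (-3.85 ± 0.57, adjusted p = 6.3e-06). Slc22a6, the organic anion transporter OAT1, was at 575, 656 and 777 CPM in Control and 131, 191 and 303 CPM in UIRI d3 (-1.71 ± 0.24, adjusted p = 3.8e-06). The 5 genes separated the groups, which for Cyp7b1 and Slc7a13 was a condition of their choice among the largest falls. Slc22a19 and Slc22a26, on chromosome 19, and Akr1c14 and Akr1c18, on chromosome 13, were among the 12 largest falls within the same limits, with log2 fold changes of -5.53, -4.70, -4.55 and -4.45 (Akr1c18 at -5.61 without UIRI d3 replicate 3). Each has close copies next to it, so that its counts are uncertain.

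Other genes among those 12 falls are not transporters. C8a, a chain of the complement attack complex, was at 12.5, 18.8 and 23.3 CPM in Control and 0, 0.197 and 0.786 CPM in UIRI d3 (-6.32 ± 0.56, adjusted p = 2.1e-09). Pvalb, parvalbumin, a calcium buffer of the early distal convoluted tubule, was at 21.3, 33.4 and 46.5 CPM in Control and 0, 0.304 and 1.89 CPM in UIRI d3 (-5.85 ± 0.70, adjusted p = 2.4e-07). Without UIRI d3 replicate 4, which held its highest value there, the log2 fold change was -6.81, and that of C8a was -6.94 without UIRI d3 replicate 3. Nccrp1, an F-box-like protein, was at 59.9, 104 and 133 CPM in Control and 0.424, 2.25 and 6.4 CPM in UIRI d3 (-5.20 ± 0.55, adjusted p = 3.7e-08). Mettl7a2, a lipid-droplet methyltransferase copy, was at 57.9, 83.7 and 134 CPM in Control and 0.784, 3.11 and 6.96 CPM in UIRI d3 (-4.63 ± 0.60, adjusted p = 1.1e-06).

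Ion pumps and channels fell in 24 of 43 cases and rose in 8 (median -0.76). Atp1b1, the beta subunit of the sodium pump, was at 2908, 4403 and 4889 CPM in Control and 1476, 1784 and 1920.0 CPM in UIRI d3 (-1.25 ± 0.18, adjusted p = 3.5e-06). Kcnj10, a basolateral potassium channel of the distal nephron, was at 34.1, 39.5 and 43.6 CPM in Control and 11.6, 12.9 and 15.8 CPM in UIRI d3 (-1.57 ± 0.15, adjusted p = 5.7e-09). Bsnd, barttin, the subunit of the chloride channels, was at 26.9, 35.7 and 45.4 CPM in Control and 6.74, 8.03 and 10.6 CPM in UIRI d3 (-2.09 ± 0.23, adjusted p = 9.7e-08). Cftr, the cystic fibrosis chloride channel, was at 4.06, 5.4 and 7.82 CPM in Control and 13.1, 20.0 and 26.5 CPM in UIRI d3 and rose (1.78 ± 0.24, adjusted p = 1.4e-06). Fxyd5, a modulator of the sodium pump, rose too, at 8.41, 12.7 and 19.9 CPM in Control and 42.6, 52.1 and 60.3 CPM in UIRI d3 (1.97 ± 0.26, adjusted p = 1.3e-06). None of these overlapped. Slc12a1, the loop diuretic target of the thick ascending limb, was at 2338, 2589.6 and 4598 CPM in Control and 391, 895 and 1126 CPM in UIRI d3 (-1.89 ± 0.27, adjusted p = 4.1e-06). Slc12a3, the thiazide target of the distal tubule, was at 407, 483 and 540.4 CPM in Control and 73, 91 and 126 CPM in UIRI d3 (-2.29 ± 0.23, adjusted p = 2.2e-08).

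Of 283 solute carriers tested, 112 fell and 30.0 rose (median -0.42; 85 and 49 without TMM scaling). Slc16a7, the monocarboxylate transporter MCT2, which takes up lactate and pyruvate, was at 87.7, 113 and 165 CPM in Control and 13.1, 15.8 and 19.5 CPM in UIRI d3 (-2.85 ± 0.25, adjusted p = 2.2e-09). Slc25a24, a calcium-driven ATP-magnesium carrier of mitochondria, rose at 3.77, 5.92 and 9.86 CPM in Control and 34.1, 50.2 and 60.1 CPM in UIRI d3 (2.87 ± 0.24, adjusted p = 5.4e-10). Slc34a1, the phosphate transporter of the healthy proximal tubule, was at 4914, 5471 and 7776 CPM in Control and 2014, 2578 and 2665 CPM in UIRI d3 (-1.20 ± 0.22, adjusted p = 0.00011). Its relative Slc34a2, the phosphate transporter of lung and gut, rose at 2.85, 5.14 and 6.46 CPM in Control and 21.2, 65.7 and 152 CPM in UIRI d3 (3.92 ± 0.47, adjusted p = 2.6e-07). The lactate exporter Slc16a3 (MCT4) rose as well, at 0.68, 1.76 and 2.66 CPM in Control and 11.7, 17.8 and 38.6 CPM in UIRI d3 (3.57 ± 0.38, adjusted p = 4.3e-08); Slc34a2 and Slc16a3 were chosen after their values were seen. All 5 separated the groups. Slc7a5, a large neutral amino acid transporter, rose with an overlap at 1.7, 8.01 and 16.6 CPM in Control and 8.92, 38.7 and 66.4 CPM in UIRI d3 (2.30 ± 0.52, adjusted p = 0.001). Of 28 ABC transporters, 6 were higher (21.4%, near the 17.8% of all genes tested) and 8 lower (28.6%, against 14.9%). Without TMM scaling 6 were higher and 4 lower. Abcc3, a basolateral exporter of conjugates, was at 0.425, 0.623 and 0.848 CPM in Control and 2.92, 3.48 and 4.96 CPM in UIRI d3 (2.53 ± 0.29, adjusted p = 1.7e-07). Abca13, a lipid transporter, was at 44.6, 102 and 163 CPM in Control and 7.41, 15.6 and 21.7 CPM in UIRI d3 (-2.68 ± 0.38, adjusted p = 4.0e-06).

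Signalling families were mixed. Growth factors and their receptors had 11 of 54 higher (20.4%, near the 17.8% of all genes tested) and 14 lower (25.9%, against 14.9%). The sign of the median depended on the scaling (-0.22 with TMM, 0.05 without). Fgf2 was at 1.1, 1.57 and 1.97 CPM in Control and 5.49, 7.25 and 9.1 CPM in UIRI d3 (2.19 ± 0.21, adjusted p = 6.0e-09). Inhba, the activin A chain, was at 0.0807, 0.801 and 1.16 CPM in Control and 3.54, 6.07 and 11.3 CPM in UIRI d3 (3.19 ± 0.38, adjusted p = 2.9e-07), both higher without overlap. The more abundant Fgf1 fell without overlap (-1.30 ± 0.18, adjusted p = 3.5e-06). It was at 126, 170.0 and 246 CPM in Control and 61.6, 68.1 and 87.7 CPM in UIRI d3. Wnt genes had 7 of 43 higher and 2 lower (median -0.03, and 0.24 without TMM), shares under those of all genes tested. Wnt10a, a ligand, was at 0.467, 0.969 and 1.27 CPM in Control and 4.38, 5.11 and 8.35 CPM in UIRI d3 (2.60 ± 0.26, adjusted p = 1.2e-08). Ctnnb1, beta-catenin, was at 470.5, 550.3 and 719.8 CPM in Control and 503, 639 and 834 CPM in UIRI d3 without passing (0.18 ± 0.20, adjusted p = 0.52). In the Notch list 5 of 19 rose and Hes6 fell; Rbpj, its DNA-binding factor, was at 19.9, 23.8 and 26 CPM in Control and 36.8, 40.3 and 43 CPM in UIRI d3 (0.77 ± 0.12, adjusted p = 1.4e-05). In the list of MAP kinase feedback 10.0 of 34 rose and 3 fell. Dusp5, a nuclear phosphatase of ERK, was at 1.87, 2.25 and 4.07 CPM in Control and 15.8, 24.9 and 39.4 CPM in UIRI d3 (3.33 ± 0.27, adjusted p = 4.2e-10). Dusp15, another dual-specificity phosphatase, was at 6.28, 7.6 and 8.67 CPM in Control and 0.283, 0.757 and 1.05 CPM in UIRI d3 (-3.34 ± 0.37, adjusted p = 6.7e-08).

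Guidance cues, the semaphorins, plexins, ephrins, netrins and slits, rose in 21 of 55 cases and fell in 4 (median 0.45), with 16 higher when UIRI d3 replicate 3 was left out. Sema4b was at 18.9, 22.9 and 26.7 CPM in Control and 32, 36.6 and 47.8 CPM in UIRI d3 (0.70 ± 0.16, adjusted p = 0.00084), while Sema3g, an endothelial semaphorin, was at 36.9, 46.9 and 57.5 CPM in Control and 22.8, 27.3 and 28.6 CPM in UIRI d3 (-0.81 ± 0.14, adjusted p = 4.4e-05). Ntn1, netrin-1, was at 32.5, 38.6 and 48.4 CPM in Control and 17.4, 24.5 and 30.2 CPM in UIRI d3 (-0.65 ± 0.17, adjusted p = 0.0042; this call was lost without TMM scaling). All 3 were without overlap. Proteoglycans and their enzymes rose in 15 of 38 cases and fell in 5: Sdc1, syndecan-1, was at 9.5, 11 and 17.5 CPM in Control and 36.5, 49.8 and 88.6 CPM in UIRI d3 (2.13 ± 0.22, adjusted p = 3.1e-08). Sulf1, which removes sulfate from heparan sulfate, was at 2.25, 3.82 and 4.36 CPM in Control and 10.2, 13.8 and 20.4 CPM in UIRI d3 (2.02 ± 0.21, adjusted p = 2.2e-08). Eicosanoid genes moved both ways (8 of 32 higher, 9 lower). Alox5ap, which presents arachidonate for leukotriene synthesis, was at 4.42, 8.52 and 9.85 CPM in Control and 32.1, 38 and 50.9 CPM in UIRI d3 (2.34 ± 0.21, adjusted p = 2.4e-09). Ephx2, which hydrolyses epoxy fatty acids, was at 301, 369 and 487 CPM in Control and 75.3, 108 and 165 CPM in UIRI d3 (-1.65 ± 0.23, adjusted p = 3.4e-06). Slco2a1, the prostaglandin transporter, was at 30.0, 32.7 and 36.5 CPM in Control and 81.6, 90.5 and 95.3 CPM in UIRI d3 (1.44 ± 0.15, adjusted p = 3.1e-08), with a very narrow spread in both groups.

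Splicing factors were higher in 9 of 30 cases with none lower, and long noncoding RNAs in 7 of 21 with none lower. Gas5, Snhg1 and Zfas1, which host small nucleolar RNAs in their introns, were among those 7. Gas5 was at 237 ± 27.6 CPM in Control and 391 ± 36.6 CPM in UIRI d3 (mean ± SD, n = 6; log2 fold change 0.72 ± 0.15, adjusted p = 0.00039). Snhg1 was at 24.8 ± 3.37 CPM in Control and 64.3 ± 16.1 CPM in UIRI d3 (1.37 ± 0.17, adjusted p = 3.9e-07). Zfas1 was at 62.7 ± 9.59 CPM in Control and 140.4 ± 24 CPM in UIRI d3 (1.16 ± 0.20, adjusted p = 4.1e-05). No injured library of these 3 genes reached down to a control library. Of 45 cilium and cystic kidney genes, 2 rose and 5 fell, or 2 fell without Control replicate 1, shares under those of all genes tested. Bicc1, an RNA-binding protein whose loss gives cysts, was at 358, 375 and 397 CPM in Control and 554, 667 and 737 CPM in UIRI d3 (0.80 ± 0.13, adjusted p = 2.2e-05).

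Some genes changed with a narrow spread in both groups. Mettl26, a methyltransferase-like protein, was at 262, 289.7 and 298 CPM in Control and 124, 130.1 and 144 CPM in UIRI d3 (-1.12 ± 0.13, adjusted p = 1.6e-07). Chchd10, a mitochondrial intermembrane protein, was at 968, 1142 and 1269 CPM in Control and 426, 481 and 516 CPM in UIRI d3 (-1.26 ± 0.14, adjusted p = 6.0e-08). Papss1, which activates sulfate, was at 83.7, 96.6 and 107 CPM in Control and 42.7, 46.9 and 50.6 CPM in UIRI d3 (-1.03 ± 0.12, adjusted p = 3.0e-07). Cd93, an endothelial and myeloid receptor, was at 41.3, 49.9 and 53.7 CPM in Control and 89.4, 104 and 109.6 CPM in UIRI d3 (1.05 ± 0.15, adjusted p = 3.1e-06). At the other end, Ptk7, a Wnt co-receptor, was at 1.92, 4.02 and 34.4 CPM in Control and 0.944, 35.5 and 104 CPM in UIRI d3 and did not pass (1.87 ± 0.85, adjusted p = 0.093). Its low injured value belonged to UIRI d3 replicate 2, and its log2 fold change was 2.63 without Control replicate 4. Actg1, gamma-actin, was at 0.0865, 0.618 and 1.59 CPM in Control and 0.858, 1.68 and 2.71 CPM in UIRI d3 and did not pass; it has near-identical copies, its counts are uncertain, and it was chosen after its values were seen.

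The columns' sample-sheet numbers divide the libraries into blocks, and 2 blocks held at least 2 libraries of each group. Within the block of 3 Control and 2 UIRI d3 libraries, 4555 genes were called (2386 higher, 2169 lower). Within the block of 2 Control and 3 UIRI d3 libraries, 2475 were called (1381 higher, 1094 lower). Within the former block 19 of the calls of genes named here did not pass, and within the latter 23, with fewer samples in each fit.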

How the data were processed

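Counts per gene were used as deposited; per the labels, libraries were made with the QuantSeq 3′ FWD kit, and per the submitters' processing notes reads were handled with Trimmomatic, STAR and HTSeq 0.6.1 on GRCm38. The strand setting of the counting is not given in the sources used here, so that reads of antisense partners may be shared. Symbols and positions came from the GENCODE M21 annotation of GRCm38 for 48435 of 48795 identifiers. Depth is given in the report; it limits the precision for genes of few counts. The 24 libraries of the cohort (Control, UIRI d3 and 2 groups at day 7) were fitted together with edgeR 4.0.16 (R 4.3.3): low counts filtered by group, TMM scaling, quasi-likelihood F test of UIRI d3 against Control, Benjamini-Hochberg adjustment over all genes tested at 0.05. The procedure was tested on simulated data. Standard errors are the log2 fold change divided by the square root of F. Library measures were compared with exact permutation tests. Alternatives were DESeq2 1.42.0, other scalings, no filter, the 12 libraries alone, blocks and left-out libraries. Titles number the libraries, and nothing says that numbers are shared between groups. Library blocks were read from the sample-sheet numbers of the column names, which is all that is known of them.

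Members and the 45 lists were chosen with earlier results of these data known; the solute carrier list was trimmed of antisense entries after values were seen. Genes were named by rule: up to 12 per direction with the largest fold among called genes that reached 10.0 CPM without overlap, up to 8 per direction with the largest difference in mean CPM, of each list the 4 smallest adjusted p, up to 2 in the opposite direction and the most abundant member not called, up to 6 with the widest spread in UIRI d3 and up to 6 with the narrowest in both groups, leaving out well-known markers. Exceptions are named where they appear, and a few genes that the rule picks are not reported here.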

Additional observations from a re-analysis of the deposited data

Results flagged for a closer look

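In each group of 6 libraries the distance of the highest or lowest library from its nearest neighbour was divided by the group's range and set against Dixon's 95% critical value for 6 samples. Chance alone takes about 1 in 20 groups past it, and the values below are CPM of the library concerned, with that ratio.

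UIRI d3 replicate 3 lay highest and apart from the other 5 for Akr1c18 (3.82 CPM, ratio 0.888), C8a (0.786 CPM, ratio 0.673), Chil3 (68.8 CPM, ratio 0.848), Cxcl5 (78.7 CPM, ratio 0.85), Fgg (276 CPM, ratio 0.81) and Il1b (32.5 CPM, ratio 0.824). The same library stood apart for Il1r2 (21.5 CPM, ratio 0.786), Lcn2 (534 CPM, ratio 0.7), Mmp8 (57.7 CPM, ratio 0.897), Mmp9 (57.3 CPM, ratio 0.799), S100a8 (1388 CPM, ratio 0.903) and S100a9 (523 CPM, ratio 0.926). The same library stood apart for Serpina1a (10.7 CPM, ratio 0.671), Serpina1d (8.42 CPM, ratio 0.749), Slc16a3 (38.6 CPM, ratio 0.714), Slc7a11 (12.7 CPM, ratio 0.664), Slpi (112 CPM, ratio 0.881) and Uroc1 (10.1 CPM, ratio 0.694). It lay lowest for Slc34a1 (2014 CPM, ratio 0.774).

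Control replicate 1 lay highest for Mettl7a2 (134 CPM, ratio 0.63). Control replicate 2 lay highest for Mthfd2 (27.5 CPM, ratio 0.881). Control replicate 3 lay highest for Hk2 (8.7 CPM, ratio 0.877), Il1r2 (0.553 CPM, ratio 0.693), Plaur (2.58 CPM, ratio 0.743) and Ucp1 (59.2 CPM, ratio 0.996). Control replicate 4 lay highest for Chil3 (0.692 CPM, ratio 0.651), F2 (6.49 CPM, ratio 0.794), Iqgap3 (3.03 CPM, ratio 0.66) and Serpinf2 (277 CPM, ratio 0.812). Control replicate 5 lay highest for Actb (4071 CPM, ratio 0.674), Aldoa (852 CPM, ratio 0.661), Dao (2628 CPM, ratio 0.767), Dgat2 (192 CPM, ratio 0.671) and Slc34a1 (7776 CPM, ratio 0.686). Control replicate 5 lay lowest for Havcr1 (1.69 CPM, ratio 0.716). Control replicate 6 lay highest for Mlkl (2.34 CPM, ratio 0.63) and Sirpa (119.6 CPM, ratio 0.639). UIRI d3 replicate 2 lay highest for F2 (0.343 CPM, ratio 1) and Sdhb (461 CPM, ratio 0.778). UIRI d3 replicate 5 lay highest for Snhg1 (95.2 CPM, ratio 0.629). UIRI d3 replicate 6 lay highest for Odc1 (40.0 CPM, ratio 0.662), Pink1 (117 CPM, ratio 0.698) and Umod (2472 CPM, ratio 0.786). UIRI d3 replicate 6 lay lowest for Bcl3 (73 CPM, ratio 0.665).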

How the results depend on the processing

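No call of a gene named here was reversed by any alternative. Without TMM scaling 4370 genes were higher and 1344 lower, with 708 lower by more than 2-fold (1161 with TMM); 7 of the named calls were lost, those of Dnajc3, F5, Gsdme, Itgb8, Ntn1, Xcr1 and Xpc. The medians of the lists for hypoxia-inducible factor targets, the Wnt pathway, growth factors, eicosanoids and cilium genes were then above 0. Within the block of 2 Control and 3 UIRI d3 libraries 2475 genes were called, 1381 higher and 1094 lower, with fewer samples. DESeq2 called 5705 genes, and the count with no filter on low counts was 4943. Leaving out each library in turn gave 4634 to 5081 calls (2554 to 2737 higher, 2069 to 2350 lower) and 2826 to 3027 by more than 2-fold (1756 to 1843 higher, 1070.0 to 1236 lower). It gave a difference in genes detected (UIRI d3 minus Control) of 151.6 to 633.9, and in the share held by the 50 most abundant genes of -6.93 to -6.12 percentage points. Without mitochondrial transcripts that difference was -3.65. The detected genes differed by 545.0 when libraries were thinned to a lower depth and by 591.3 when 5 counts were required, and both then passed the exact permutation test; the cause was not tested. With the library block as a covariate 5534 genes were called, 3021 higher and 2513 lower. With the replicate number as a block (replicate block) 5180 genes were called, 2830 higher and 2350 lower. Same-numbered libraries of the 2 groups had correlations of their deviations of -0.26 to 0.38, and only number 2 correlated best with its own number, so that the numbers are not taken to pair the animals. Depth limits the statements on genes at a few counts, such as Lif and C8a in the group where each is low.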
